A study of Mus musculus with 6 samples.

Results

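The genes described here encode 9 growth factor receptors that are studied in neuroblastoma: Alk, Ret, the GDNF family co-receptors Gfra1, Gfra2 and Gfra3, the neurotrophin receptors Ntrk2, Ntrk3 and Ngfr, and Kit. They were chosen by gene symbol, and each of the 9 was represented by a single row among the 21789 rows of the array table that carried 1 gene symbol. They were measured in N2A cells, a mouse neuroblastoma cell line, on Affymetrix GeneChip Mouse Gene ST arrays. The knockdown group held 3 cultures given, by transient transfection, a vector that expresses a short hairpin RNA (shRNA) against the POU transcription factor gene Pou3f3, and the control group held 3 cultures that received a non-targeting vector. Both groups received 1.5 μg of plasmid and shared the cell line, medium and transfection reagent, and RNA was taken 2.5 days after transfection. A single shRNA construct, driven by a U6 promoter, was used in bulk cultures, and how many of the cells took up the plasmid is not stated in the sources used here. The labels describe the replicates as biological. Since all were cultures of 1 line, the p-values rest on culture-to-culture spread within that line. All values are log2 array values, and all differences are knockdown minus control on that scale.

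Growth factor receptors of this kind sit in the plasma membrane and turn the binding of a secreted ligand into phosphorylation inside the cell, which feeds the RAS and PI3-kinase pathways. In the sympathetic lineage, from which neuroblastoma arises, neurotrophins and GDNF family ligands govern survival, neurite growth and differentiation. Activating mutations of ALK are known drivers of human neuroblastoma, and the balance between Trk receptors is linked to how such tumours behave. RET cannot bind GDNF family ligands on its own and needs a GFRα co-receptor anchored to the membrane. The product of Ngfr, the p75 neurotrophin receptor, has no kinase and acts both beside the Trk receptors and with sortilin family proteins.

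The start regions of Ngfr and Kit are shown because these receptor genes lay lower in every knockdown array and had an annotated start at the outer end of the gene. Each sequence holds the 250 bases before that start in the RefSeq annotation of GRCm38.p6, with every CpG dinucleotide in capitals. The Ngfr sequence lies at chr11:95587699-95587948 on the minus strand, and the Kit sequence at chr5:75574737-75574986 on the plus strand.
Ngfr: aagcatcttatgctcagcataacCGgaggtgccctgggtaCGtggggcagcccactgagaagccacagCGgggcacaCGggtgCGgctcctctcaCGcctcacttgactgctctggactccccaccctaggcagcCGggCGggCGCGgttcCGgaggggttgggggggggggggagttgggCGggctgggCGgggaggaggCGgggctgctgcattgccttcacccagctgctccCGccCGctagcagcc
Kit: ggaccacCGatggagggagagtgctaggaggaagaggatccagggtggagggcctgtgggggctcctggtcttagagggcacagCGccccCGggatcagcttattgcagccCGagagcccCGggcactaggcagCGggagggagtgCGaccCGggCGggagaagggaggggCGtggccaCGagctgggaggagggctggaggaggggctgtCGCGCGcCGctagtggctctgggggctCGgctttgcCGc

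The Ngfr sequence held 16 CpG dinucleotides and the Kit sequence 17, at a G and C content of 70.4% and 70.8%. Windows of 300 bases (250 before and 50 after a start) were given for 5 of the 9 genes, with a second start for Kit. Alk, Gfra1, Ntrk2 and Ngfr held 28, 12, 23 and 23 CpG dinucleotides in this window, and the Kit windows held 20 and 21, against a median of 7 over 32851 windows. The octamer ATGCAAAT, the classical motif of POU proteins, was in none of the 6 windows on either strand, and it was in 1.74% of all windows. The GC box GGGCGG was found in 5 of the 6 windows, 4 times in that of Ngfr, and in 35.7% of all windows. Both Kit windows, which begin at 75574737 and 75574741, overlap almost wholly, so the same Kit GC box is counted in each. The TATA box TATAAA was in none of the 6 and in 13.6% of all windows. These matches describe letters only.

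Pou3f3 itself had values of 8.20, 8.09 and 8.35 on the knockdown arrays, against 8.37, 8.30 and 8.47 on the control arrays. The groups overlapped, and the difference of -0.16 ± 0.08 (SE) did not pass the adjusted p threshold of 0.1 (limma adjusted p = 0.303). When the replicate number was a block it passed that threshold (limma adjusted p = 0.0880), below the fold cut-off. The 1000 rows nearest to Pou3f3 in level had a median difference of -0.07. The study itself reported a reduced Pou3f3 level after this knockdown by quantitative RT-PCR, a measure not used here. Across all rows with 1 symbol, 433 of 21789 (1.99%) were called, which required a fold of 1.3 or more and an adjusted p below 0.1, with 284 higher and 149 lower in knockdown cells, or 232 and 193 after cyclic loess normalisation. The count was 161 without control replicate 2, 219 without control replicate 3 and 147 without knockdown replicate 2. Of 17 markers of sympathoadrenal neuroblastoma 15 were measured, at mean array values between 8.14 and 13.76. Their summed log2 value ran from 16.03 to 16.05 on the knockdown arrays and from 16.21 to 16.26 on the control arrays. This sum is weighted towards the genes of highest value, and the part of its shift in the receptor differences was not tested. Of the 15 markers 9 lay below 0, with a median difference of -0.06. Without overlap, Th, Chgb, Chga and Gata3 differed by -0.38, -0.38, -0.35 and -0.33 (limma adjusted p = 0.133, 0.0456, 0.0628 and 0.0484). Elavl4 was higher by 0.29, also without overlap (limma adjusted p = 0.0634). Ddc and Mycn were higher by 0.23 and 0.11 with overlapping groups (limma adjusted p = 0.317 and 0.465). A row of Dbh was the single call among the 15, with a difference of -1.17 (limma adjusted p = 0.00471). No marker of Schwann cells, fibroblasts, mast cells, macrophages or endothelium was called.

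None of the 9 receptor genes met both criteria (limma). Ngfr came closest and was the 1 gene that passed the adjusted p alone, a threshold that 1.79% of all rows passed with lower values in knockdown cells. An unadjusted p under 0.05 was reached by 5 of the 9, where 19.9% of all rows reached it. Of the 9 genes, 8 had a lower mean in knockdown cells, with Gfra2 as the exception. The median difference of the 9 genes was -0.09, whereas the median over all rows was -0.03, and 57.5% of all rows lay below 0. In 5 of the 9 genes all knockdown arrays lay below all control arrays, a pattern found in 15.1% of all rows. Arrays of the same replicate number deviated together, clearly so for replicate 1, whereas replicates 2 and 3 were little told apart. In the fit that took this number as a block, the adjusted p passed the threshold for Ngfr and Kit, both lower (10.7% of all rows), and for Gfra2, which was higher (12.3% of all rows). Changes in the number of cells that express a receptor and in RNA per cell cannot be told apart in these bulk samples.

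**Figure D1:**
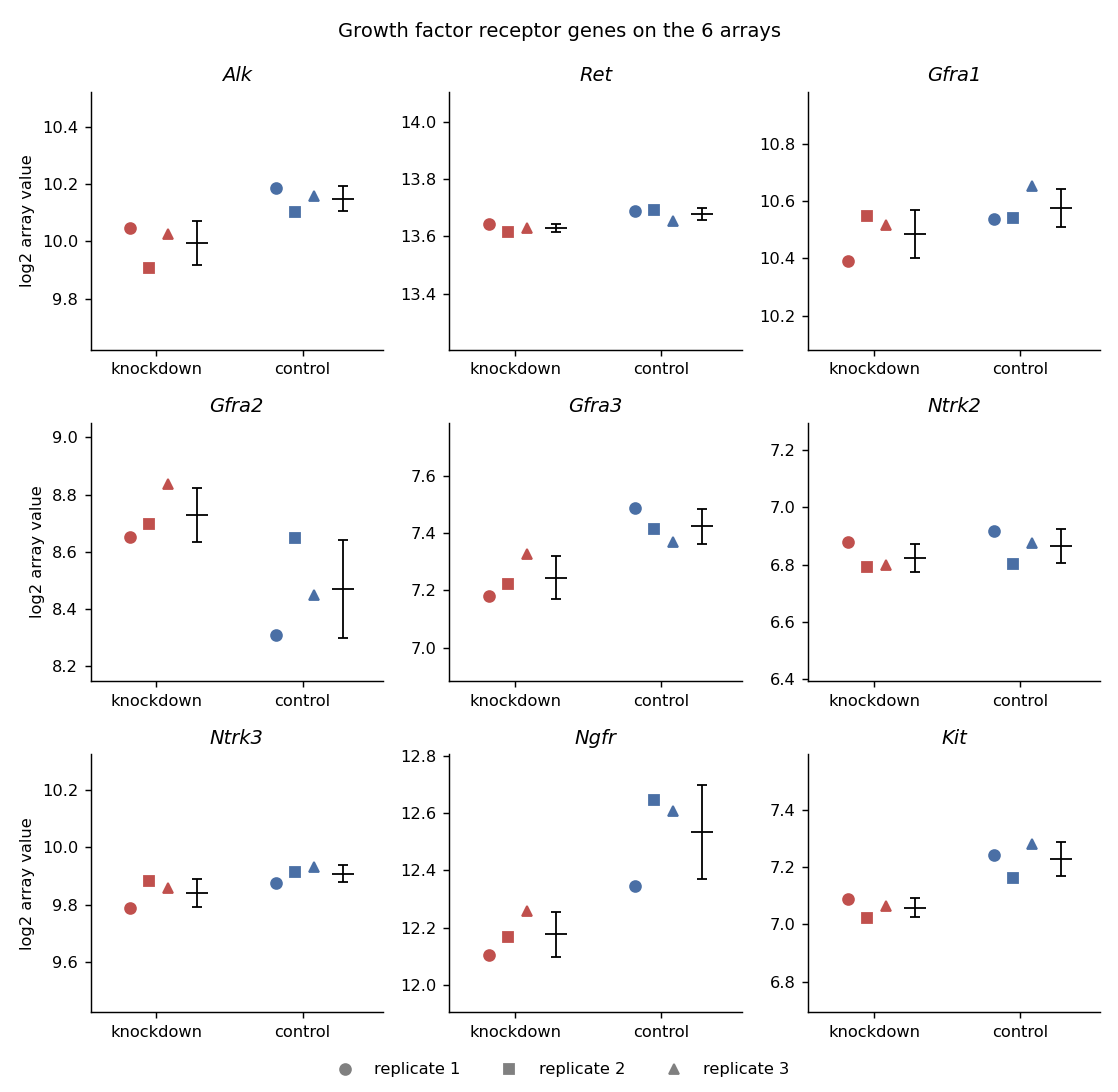
Receptor gene levels in knockdown and control cells, as log2 array values on vertical axes that all have the same length of 0.9 log2 units. Each point is 1 array with its replicate number, and the bars show the mean ± SD of 3 arrays per group. The groups are farthest apart for Ngfr, at 12.18 in knockdown cells and 12.53 in control cells, and they overlap for Gfra1, Ntrk2 and Ntrk3.

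Among the neurotrophin receptors, Ngfr showed the largest difference of all 9 genes. Its values were 12.10, 12.17 and 12.26 on the knockdown arrays, against 12.34, 12.65 and 12.61 on the control arrays. The highest knockdown array lay 0.08 below the lowest control array, and control replicate 1 stood below the other control arrays. Ngfr averaged 12.18 ± 0.08 in knockdown cells and 12.53 ± 0.16 in control cells (SD, n = 3 each), a difference of -0.36 ± 0.09 (SE, 95% confidence interval -0.56 to -0.15). This corresponds to a level 21.8% lower and is just under the fold cut-off, which is 0.38 on the log2 scale (limma adjusted p = 0.0883). The exact permutation test over the arrays gave p = 0.1, which is the smallest value that 3 against 3 arrays allow. The 3 pairs of same-numbered arrays differed by -0.24, -0.48 and -0.35, and the fit with the replicate block gave a limma adjusted p of 0.00957.

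Which arrays entered the fit decided whether Ngfr passed. Without control replicate 1 the difference was -0.45 and passed both thresholds (limma adjusted p = 0.0304). Without control replicate 2 or 3 the limma adjusted p was 0.286 or 0.236, and without knockdown replicate 1, 2 or 3 it was 0.164, 0.251 or 0.124, at differences between -0.40 and -0.30. The difference kept its direction in each of these fits. Ngfr also marks Schwann cells and their precursors, and the summed log2 value of 5 Schwann cell markers ran from 10.48 to 10.56 on the knockdown arrays and from 10.43 to 10.60 on the control arrays, so those groups overlapped. Erbb3, which is not limited to Schwann cells, had the highest values of the 5. Sox10, which encodes a transcription factor of the Schwann lineage, had 7.92, 7.96 and 8.07 on the knockdown arrays, against 8.11, 8.19 and 8.26 on the control arrays. The Sox10 groups did not overlap (difference -0.21 ± 0.07, SE, limma adjusted p = 0.172, or 0.0440 with the replicate block), and its part in the Ngfr difference was not tested. Sox10 was singled out after its values were seen. The 1000 rows nearest to Sox10 in level had a median difference of -0.08, and 15.1% of all rows lay lower without overlap. Among the 5 markers, Erbb3 and Cdh19 differed by 0.11 and 0.02, and S100b and Foxd3 by -0.10 and -0.10, all with overlapping groups.

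The Trk receptor genes differed little. Ntrk3, which encodes the neurotrophin-3 receptor TrkC, had 9.79, 9.88 and 9.86 on the knockdown arrays, against 9.88, 9.92 and 9.93 on the control arrays. These values overlapped narrowly, although in all 3 same-numbered pairs the knockdown array was the lower one (difference -0.07 ± 0.06, SE, limma adjusted p = 0.574). Ntrk2, which encodes the BDNF receptor TrkB, had 6.88, 6.79 and 6.80 on the knockdown arrays, against 6.92, 6.80 and 6.88 on the control arrays. The groups overlapped, and the 95% confidence interval of the difference reached from -0.19 to 0.11. A change in array value of the size seen in Ngfr lay outside this interval. Ntrk2 read below every array median, of which the lowest was 7.90, and its detection above background was not analysed. The interval therefore holds for array values and does not exclude such a change in RNA. The interval for Ntrk3 was -0.21 to 0.08. The sign of the Ntrk2 difference turned after cyclic loess normalisation.

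The GDNF receptor genes did not move as a group. Ret, the signalling kinase, had 13.64, 13.62 and 13.63 on the knockdown arrays, against 13.69, 13.69 and 13.66 on the control arrays. These arrays did not overlap, but the step between the groups was only 0.01, and the difference of -0.05 ± 0.06 (SE) was not separated from 0 by the fit, which takes its variance partly from other rows (limma adjusted p = 0.666). Its 95% confidence interval of -0.18 to 0.09 spans a level from 11.9% lower to 6.15% higher.

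Gfra2, the preferred co-receptor of neurturin, was the 1 receptor gene with higher values in knockdown cells. It had 8.65, 8.70 and 8.84 on the knockdown arrays, against 8.31, 8.65 and 8.45 on the control arrays. The groups touched, since knockdown replicate 1 lay only 0.003 above control replicate 2, and the control arrays were spread more widely than the knockdown arrays. Gfra2 averaged 8.73 ± 0.10 in knockdown cells and 8.47 ± 0.17 in control cells (SD, n = 3 each), a difference of 0.26 ± 0.09 (SE, 95% confidence interval 0.04 to 0.47, limma adjusted p = 0.188). The 3 pairs of same-numbered arrays differed by 0.34, 0.05 and 0.38. With the replicate block the limma adjusted p was 0.0484, still below the fold cut-off.

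Gfra1, the preferred co-receptor of GDNF, had 10.39, 10.55 and 10.52 on the knockdown arrays, against 10.54, 10.54 and 10.65 on the control arrays. The groups overlapped, and knockdown replicate 2 lay above the control array of its number (difference -0.09 ± 0.07, SE, limma adjusted p = 0.489). Gfra3, the co-receptor of artemin, had 7.18, 7.22 and 7.33 on the knockdown arrays, against 7.49, 7.41 and 7.37 on the control arrays. Its groups were apart by 0.04, with a difference of -0.18 ± 0.07 (SE, 95% confidence interval -0.34 to -0.02, limma adjusted p = 0.204), and it missed the adjusted threshold with the replicate block too. After cyclic loess normalisation the differences of Gfra3 and Gfra1 were -0.10 and -0.14 (limma adjusted p = 0.445 and 0.295). Whether the difference of Gfra2 departs from those of Gfra1 and Gfra3 was not tested.

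**Figure D2:**
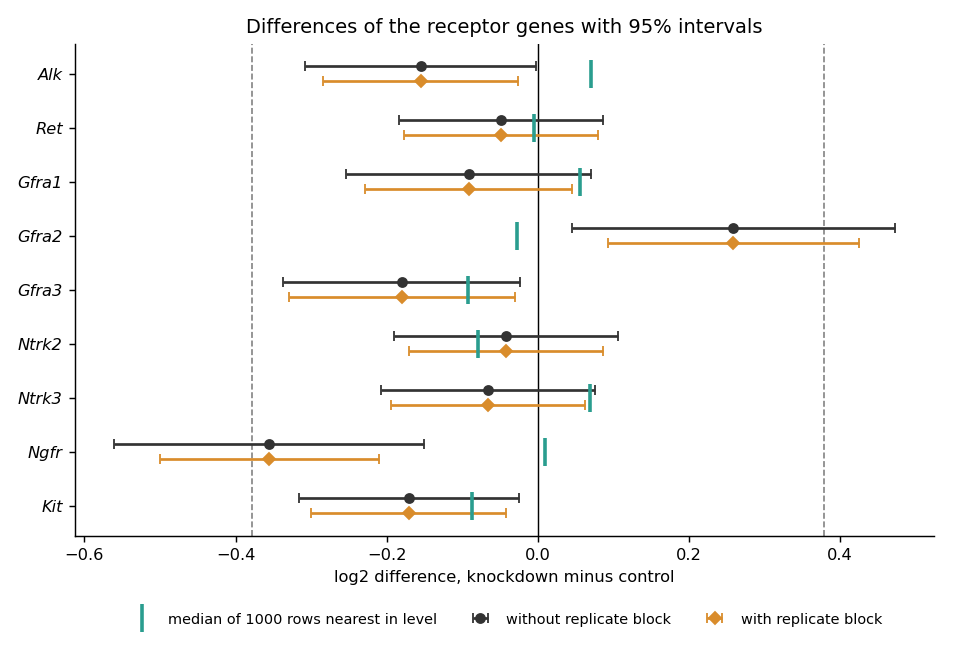
Log2 difference between knockdown and control (horizontal axis) of the 9 receptor genes with 95% confidence intervals (n = 3 arrays each), in the fits without and with a replicate block. Dashed lines mark the fold cut-off of 1.3, and green ticks the median difference of the 1000 rows nearest in level. Gfra2 alone lies to the right of 0, and Ngfr lies farthest to the left, at -0.36.

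Alk, the receptor tyrosine kinase of the ALKAL ligands, had 10.05, 9.91 and 10.03 on the knockdown arrays, against 10.19, 10.10 and 10.16 on the control arrays. All knockdown arrays were below all control arrays, by at least 0.05, and the lowest was knockdown replicate 2. Alk averaged 9.99 ± 0.08 in knockdown cells and 10.15 ± 0.04 in control cells (SD, n = 3 each), a difference of -0.16 ± 0.07 (SE), or a level 10.2% lower (95% confidence interval -0.31 to -0.00 on the log2 scale, limma adjusted p = 0.246). It narrowly missed the adjusted threshold with the replicate block too.

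Kit, the receptor of stem cell factor, had 7.09, 7.02 and 7.06 on the knockdown arrays, against 7.24, 7.16 and 7.28 on the control arrays. The groups were apart by 0.07, and the knockdown arrays were closer together than the control arrays. Kit averaged 7.06 ± 0.03 in knockdown cells and 7.23 ± 0.06 in control cells (SD, n = 3 each), a difference of -0.17 ± 0.06 (SE, 95% confidence interval -0.32 to -0.03, limma adjusted p = 0.197, or 0.0787 with the replicate block). After cyclic loess normalisation the difference was -0.09 (limma adjusted p = 0.481). Kit is also a mast cell gene. The 6 mast cell markers had mean array values between 5.09 and 6.99, and their summed log2 value ran from 8.51 to 8.59 on the knockdown arrays and from 8.61 to 8.64 on the control arrays, and that of 5 macrophage markers from 8.89 to 9.01 on the knockdown arrays and from 9.03 to 9.14 on the control arrays. These sums also lay lower in knockdown cells, although none of the markers was called. All 5 macrophage markers lay below 0, but only 4 of the 6 mast cell markers did. Cpa3 was higher by 0.14, with groups that did not overlap, and Mcpt4 by 0.04. Tpsb2 and Cma1, the mast cell markers of highest value, differed by -0.15 and -0.17, where rows nearest in level had medians of -0.08 and -0.06. The part of these markers in the Kit difference was not tested.

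Rows of low and high array value drifted in different directions, and the receptor genes were read beside rows of their own level. The 1000 rows nearest in level had a median difference of -0.09 for Kit and Gfra3 and of -0.08 for Ntrk2. Beside these medians the differences of Kit and Gfra3 were about as far again below, and that of Ntrk2 was above. For Alk, Ntrk3 and Gfra1 the nearest rows had medians of 0.07, 0.07 and 0.06, so these genes lay below rows that tended upwards. The nearest rows of Ngfr and Ret had medians of 0.01 and -0.01, and those of Gfra2 a median of -0.03. The part of this drift in the differences was not tested.

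**Figure D3:**
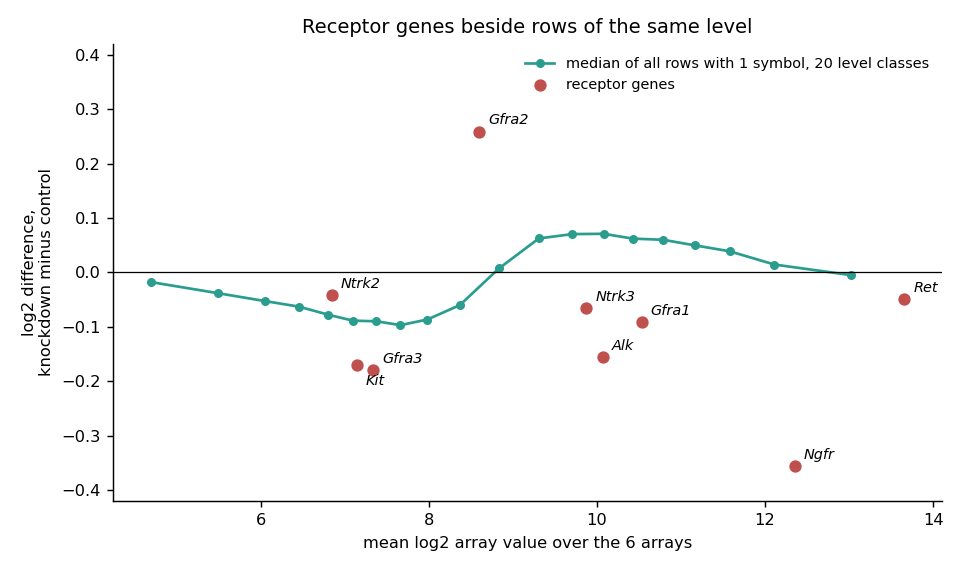
Log2 difference between knockdown and control (vertical axis) against the mean log2 array value over the 6 arrays (horizontal axis), for the 9 receptor genes (points) and as the median of all rows with 1 symbol in 20 level classes (line). The line is lowest at -0.10 and highest at 0.07. Ngfr and Gfra2 lie farthest from it, on opposite sides.

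None of the ligand genes of these receptors was called (limma, with an unadjusted p under 0.05 for 3). Of 14 ligand genes 11 were measured, 10 lay below 0, and the median difference was -0.11, or -0.03 after cyclic loess normalisation. Their median array value was 7.68, and all rows in the level class around it, from 7.52 to 7.82, had a median difference of -0.10. Pspn, which encodes persephin, the ligand of the GFRα4 co-receptor, had the largest difference. Its values were 7.83, 7.81 and 8.09 on the knockdown arrays, against 8.24, 8.22 and 8.15 on the control arrays (difference -0.30 ± 0.09, SE, limma adjusted p = 0.126, or 0.0376 with the replicate block). The groups did not overlap, and knockdown replicate 3 stood near the control arrays.

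The ALK ligand gene Alkal2 differed by -0.19 and Alkal1 by -0.01, and the heparin-binding growth factor genes Ptn and Mdk differed by -0.18 and -0.08. With the replicate block Ptn and Alkal2 passed the adjusted p (0.0775 and 0.0520), below the fold cut-off. Among the RET ligands, Gdnf differed by -0.13, Nrtn by -0.13 and Artn by 0.07. Bdnf and Ntf5, which encode ligands of TrkB, differed by -0.11 and -0.05, and Kitl, the ligand of KIT, by -0.06. The limma adjusted p-values of the 10 ligand genes other than Pspn ran from 0.224 for Ptn to 0.932 for Alkal1 without the block.

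Among the co-receptors 1 gene fell clearly. Sdc3, which encodes syndecan-3, a cell surface heparan sulphate proteoglycan that binds GDNF family ligands, had 9.43, 9.45 and 9.40 on the knockdown arrays, against 10.18, 10.22 and 10.21 on the control arrays. The arrays within each group were nearly identical, and the groups lay far apart. The difference of -0.78 ± 0.06 (SE, 95% confidence interval -0.91 to -0.64, limma adjusted p = 0.00203) corresponds to a level 41.6% lower. It was called in every alternative run, leaving out any 1 array included. Ncam1, the neural cell adhesion molecule, which can also serve as a GDNF receptor together with GFRα1, had 12.98, 12.93 and 12.92 on the knockdown arrays, against 13.25, 13.42 and 13.28 on the control arrays. These groups did not overlap, and the difference of -0.38 ± 0.07 (SE, limma adjusted p = 0.0377) passed the adjusted p but stayed marginally under the fold cut-off. Without control replicate 2, control replicate 3 or knockdown replicate 2 the limma adjusted p of Ncam1 was 0.165, 0.116 or 0.142, and with all rows tested it was 0.149, or 0.309 with the variance filter.

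Sdc3 was the single call among the 18 co-receptors and close relatives measured, of which 14 lay below 0 and 4 above, with a median of -0.09. Their median array value was 8.47, where the level class of all rows had a median difference of -0.06. Nradd, Pdgfrb and Pdgfra were higher by 0.31, 0.25 and 0.23 without overlap (limma adjusted p = 0.148, 0.167 and 0.165). With the replicate block these genes passed the adjusted p (0.0225, 0.0277 and 0.0654). Sort1, which encodes sortilin, the partner of p75 for unprocessed neurotrophins, differed by -0.10 (limma adjusted p = 0.431). Gfra4 differed by -0.17 and the ALK relative Ltk by -0.13 (limma adjusted p = 0.231 and 0.415). With the replicate block Gfra4 passed the adjusted p (0.0950).

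Downstream genes did not share a direction. Of 58 measured genes of adaptors and signalling enzymes 33 lay above 0 and 25 below, with a median of 0.02 (0.0024 after cyclic loess normalisation). Their median array value was 10.85, where the level class of all rows had a higher median difference of 0.06. Of the 58 genes 1 was called, beside 1.99% of all rows. Pik3cb, a catalytic subunit of PI3-kinase, rose to 10.19, 10.11 and 9.94 on the knockdown arrays, against 9.65, 9.44 and 9.50 on the control arrays (difference 0.55 ± 0.09, SE, limma adjusted p = 0.0210). The groups were apart in these arrays, whereas the limma adjusted p was 0.104 without control replicate 2 and 0.107 without knockdown replicate 2. With all rows tested it was 0.131, or 0.2501 with the variance filter. Of 32 other receptor tyrosine kinase genes 26 lay below 0 with a median of -0.06, and none was called (limma, with an unadjusted p under 0.05 for 4). Their median array value was 8.01, where the level class of all rows had a median difference of -0.09. Mst1r, the receptor of macrophage-stimulating protein, differed most, with 8.29, 8.25 and 8.26 on the knockdown arrays, against 8.58, 8.58 and 8.67 on the control arrays. Its groups did not overlap, and the difference of -0.35 ± 0.06 (SE, limma adjusted p = 0.0333) was below the fold cut-off. The limma adjusted p of Mst1r was 0.130, 0.131 and 0.129 without control replicate 2, control replicate 3 and knockdown replicate 2, and with all rows tested it was 0.131, or 0.324 with the variance filter.

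**Figure D4:**
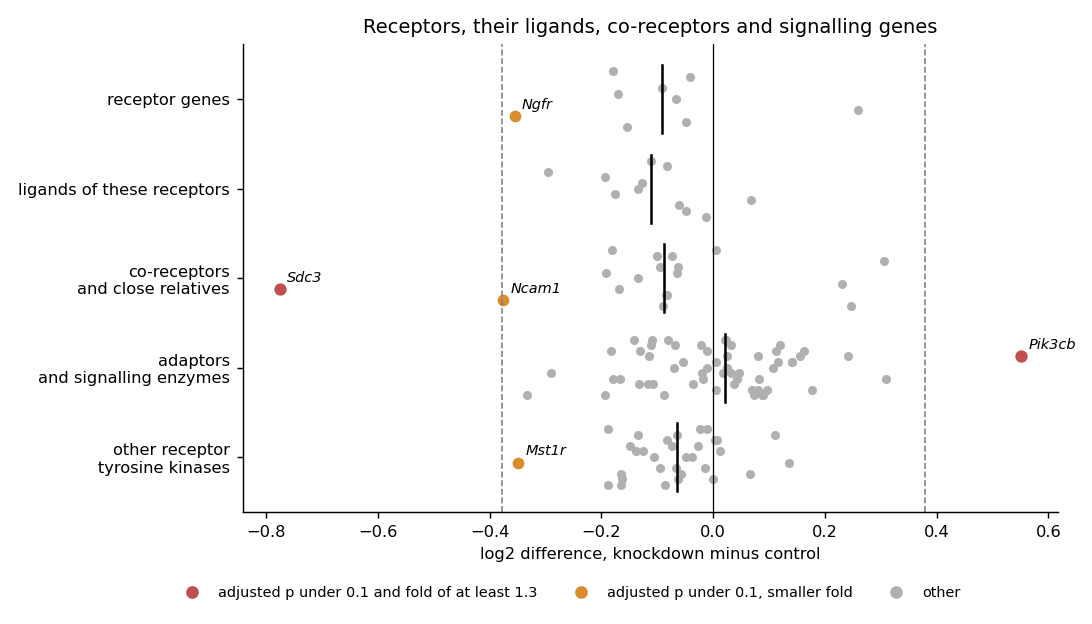
Log2 difference between knockdown and control (horizontal axis) of the 9 receptor genes and of 4 lists of related genes, with 1 point per gene and black bars at the list medians. Dashed lines mark the fold cut-off of 1.3. Sdc3 at -0.78 and Pik3cb at 0.55 are the called genes, and Ngfr, Ncam1 and Mst1r passed the adjusted p with a smaller fold.

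The genes whose pattern over the 6 arrays was nearest to that of Ngfr, among 19938 symbols, were Ttyh2, Bcap31 and Asic1. Nearness was the root mean square distance between log2 values centred on each gene's mean, which was 0.03, 0.03 and 0.04. Asic1, an acid-sensing cation channel of neurons, differed by -0.34 (limma adjusted p = 0.0704), the endoplasmic reticulum protein gene Bcap31 by -0.33 (0.0862) and Ttyh2 by -0.31 (0.112, or 0.0127 with the replicate block). All had control replicate 1 as the lowest control array, as Ngfr did. Since they were chosen by closeness to Ngfr on these same arrays, the shared array order, direction and size follow from the choice.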

How the data were processed

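Total RNA of 3 knockdown and 3 control cultures (200 ng each) was labelled and hybridised to Affymetrix Mouse Gene ST arrays. The deposited log2 values were made by the authors through RMA background correction, quantile normalisation and gene-level summary. Quantile normalisation hides a change shared by most genes. Versions and the genome build of the array design are not given in the sources used here. Gene symbols came from the platform annotation, and rows with several symbols (1621) or none listed (12146) were not tested. The 9 receptors, the lists and the test were chosen with earlier results of these data known. All 21789 rows with 1 symbol were fitted with lmFit and eBayes in limma 3.58.1 (R 4.3.3), group as the only factor, with Benjamini-Hochberg adjustment over all of these rows. The fold cut-off of 1.3 follows the study's methods. Their variance cut-off was read here as keeping rows above the median variance, and this reading was run as an alternative. For this knockdown the study reported more changed genes than any count of called rows given here. The reason for this gap was not examined. The number of arrays limits the precision. Genes were named as the Pou3f3 target, the 9 receptors, their direct ligands and co-receptors, the called genes with the largest difference of each list (or the gene with the largest difference) and the 3 nearest patterns to Ngfr. Dbh, as the single called marker, was named after its value was seen, and so were the other single markers, Nradd, Pdgfra and Pdgfrb. The marker lists were summed on the linear scale before taking log2. The deviations of same-numbered arrays from their group means correlated at 0.638, 0.307 and 0.289 over the rows. Knockdown replicate 2 with control replicate 3 gave 0.216, and knockdown replicate 3 with control replicate 2 gave 0.254. The pairing of replicates 2 and 3 is therefore weakly marked. The replicate number in the labels was taken to pair the arrays, and it was fitted as a block in an alternative. Promoter windows came from a RefSeq table and were searched on both strands with Python 3.11.15. The fit was tested on simulated data.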

Additional observations from a re-analysis of the deposited data

How the results depend on the processing

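The count of receptor genes called by adjusted p and fold was 0 in every alternative except on leaving out 1 array, where it ran from 0 to 1 (Ngfr, without control replicate 1). The count that passed the adjusted p alone was 1, and it was 3 with the replicate block, 0 when all rows of the table, named or not, were tested with or without the variance filter, and 0 to 1 on leaving out 1 array. The limma adjusted p of Ngfr ran from 0.00957 to 0.375 over 15 alternatives, and that of Gfra2 from 0.0484 to 0.410. The count over all rows was 28 for all rows without a filter (10 higher, 18 lower) and 12 with the variance filter (2 and 10). On leaving out 1 array it ran from 147 to 611. The cause of these changes in count was not tested. With all rows tested, Asic1 and Bcap31 no longer passed the adjusted p (0.202 and 0.225, or 0.367 and 0.377 with the variance filter). The variance filter on rows with 1 symbol left 3 of the 9 receptor genes, and the filter on low values left 8. After cyclic loess the differences of Ntrk2, Alkal1 and Ntf5 turned to 0.0339, 0.0300 and 0.0242. Those of Ntrk3, Ret and Gfra4 moved to -0.11, -0.03 and -0.09 with their direction kept, and Ttyh2 passed the adjusted p (0.0864). On leaving out 1 array Alkal1 ran from -0.0514 to 0.0378 and Ntf5 from -0.104 to 0.0125. The other 8 receptor genes kept their direction in every alternative that tested them. The cause of these changes of sign was not tested. Among the genes named, the cell type markers aside, the replicate block changed no call other than those given with them. Detection above background was not analysed here.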
